A study of Drosophila melanogaster with 8 samples.

Results

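Short islands of H3K9me3 were defined in the euchromatin of 3 autosomal arms of Drosophila melanogaster from ovaries of control flies. An island was a run of 1 to 4 windows of 1 kb on 2L, 3L or 3R in which the chromatin immunoprecipitation (ChIP) signal stood at least 2-fold above input in both control lysates, with neighbouring windows joined over gaps of 1 window. The islands were thus selected on the shW values of the same libraries described here. Of the 66265 windows of these intervals that held enough input to be tested, 515 met the criterion in such short runs and formed 329 islands. A further 16 runs were longer and are called long blocks here. Windows of all scaffolds that held enough input numbered 117126.

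The tested genotype carried the MTgal4 driver and the hairpin shSov, named for Sov, and the control carried the MTgal4 driver and the hairpin shW. Ovaries of adult flies fed with yeast were fixed. Each genotype had 2 ChIP libraries with an antibody to H3K9me3 and 2 input libraries. A ChIP and an input of the same genotype and number are treated here as 1 lysate, a pairing that the labels do not state. MTgal4 drives expression in germ cells, and whole ovaries also hold somatic follicle cells, in which it does not drive the hairpin; their share of the signal was not measured. The level of Sov, the number of animals per lysate and whether lysates 1 and 2 came from separate crosses were not analysed here, and the spread between them may be technical.

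Trimethylation of histone H3 at lysine 9, H3K9me3, marks constitutive heterochromatin and is bound by HP1 proteins, which help to keep the chromatin condensed and silent. Most of it lies in the pericentric regions, on the fourth chromosome and over transposons, and the gene-rich arms carry it in scattered small patches. In ovaries such patches are known from transposon insertions silenced by piRNAs, the small RNAs that guide Piwi proteins, and from genes that are kept silent in the female germ line. Sov is a zinc finger protein that acts with HP1a in heterochromatin and is needed in the female germ line. The title of the study names a need for Sov in the deposition of this mark, and setting shSov ovaries against shW ovaries asks this of the islands. Genes and transposons at the islands are not named, because no annotation or sequence of build dm3, in which positions are given, was used here.

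Enrichment is the log2 of (ChIP RPKM + 1) over (own input RPKM + 1), where RPKM is the read count scaled to window length and library size, and the enrichment of an island is the mean over its enriched windows. ChIP libraries held 16514896 and 5847945 reads in shSov and 4208693 and 6383061 in shW, and inputs held 27962050 and 26348096 reads in shSov and 13688640 and 9760028 in shW. The median island held 279.0 and 110.5 ChIP reads per window in the shSov lysates, against 109.0 and 160.0 in the shW lysates. The shallowest island value was 12 ChIP reads per window in an shSov library and 28 in an shW library. Libraries were scaled to their totals and no spiked-in standard is described, which makes every difference between genotypes relative to the rest of the genome. The median tested window of the 3 intervals stood at -0.33 and -0.39 in shSov and at -0.69 and -0.50 in shW, and this shift of 0.23 runs opposite to the differences at the islands. With each lysate centred on its median interval window, the rule gave 895 islands, and the difference between the island medians of shSov and shW was -0.60, against -0.52 without centring. Centring leaves the scale of a lysate unchanged. The SD of enrichment over windows of the intervals, which includes counting noise, was 0.30 and 0.41 in shSov and 0.60 and 0.47 in shW. Whether a narrower scale in shSov lowers the island values was not tested.

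The islands were small and spread over the arms. A single enriched window made up 201 of them, 2 windows 86, 3 windows 26 and 4 windows 16. 2L held 111 islands, 3L 107 and 3R 111, which is 5.56, 4.78 and 4.22 islands per Mb. Along the arms the density was even when the arms were pooled, with 5.15, 4.91 and 4.84 islands per 1000 tested windows in distal, middle and proximal stretches of equal length. The densest stretch was the distal one of 2L, with 53 islands and 8.24 per 1000 tested windows, and the sparsest was the distal one of 3R, with 29 islands and 3.42. The median distance from an island to the nearest other island or long block was 47.0 kb, and 63 islands (19.2%) had such a neighbour within 10 kb. Of the 329 islands, 14 lay within 50 kb of a long block. The share of all tested windows this near to a long block was not computed.

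Islands rested on ordinary amounts of input DNA. Mean input over the 4 input libraries ranged from 2.13 to 17.3 RPKM per island, with a median of 8.88 RPKM. The median island window had 8.97 RPKM of input and the median tested window of the intervals 7.37 RPKM. The input of island windows was close between genotypes, with medians of 9.16 and 9.11 RPKM in shSov and 8.69 and 8.81 RPKM in shW. Both shSov inputs lay above both shW inputs in 34.8% of island windows, where 26.6% of the tested windows of the intervals showed this order. edgeR's quasi-likelihood test on the counts of all 8 libraries called 2 of the 515 island windows higher and 3 lower in shSov input at a Benjamini-Hochberg adjusted p under 0.05, where 0.695% and 0.662% of all tested windows were called. At an unadjusted p under 0.05 the same test found 46 of the 515 higher and 13 lower, and 4820 higher and 4430 lower among the 66265 tested windows of the intervals. The shW input is part of the value that chose the islands, so these counts are a description. Without shW lysate 1 the calls were 20 higher and 7 lower, without shW lysate 2 they were 3 higher and 11 lower, and without either shSov lysate they were 0 and 0.

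In shSov the islands kept enrichment over input, at a level below that of the control. The median enrichment of the 329 islands was 0.82 and 0.98 in the shSov lysates, against 1.47 and 1.36 in the shW lysates. This is 0.90 ± 0.12 (SD, n = 2) in shSov and 1.42 ± 0.08 (SD, n = 2) in shW, and the difference of -0.52 is larger than the spread within either genotype. In whole ovaries, fewer cells with the mark and less mark per cell cannot be told apart. The rule chose the islands for high values in both shW lysates, so the shW values, their spread and the difference are descriptions and carry no test. In ChIP signal alone the median island had 16.9 and 18.9 RPKM in shSov and 25.9 and 25.1 RPKM in shW, while windows of the intervals outside islands and blocks had 5.93 and 5.64 RPKM in shSov and 4.28 and 5.17 RPKM in shW.

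**Figure D1:**
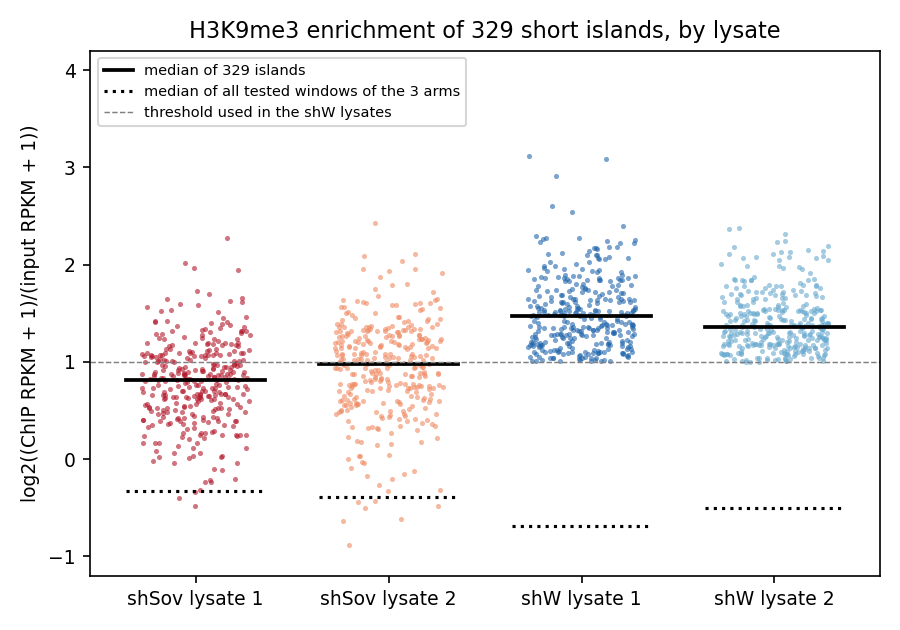
Log2 enrichment (vertical axis) of each of the 329 islands (points, spread sideways for visibility) in the 2 shSov and the 2 shW lysates. Solid lines are the medians of the islands, 0.82 and 0.98 in shSov and 1.47 and 1.36 in shW; dotted lines are the medians of all tested windows of the 3 arms, and the dashed line is the threshold of 1 that chose the islands in the shW lysates.

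Enrichment over input within shSov was a measure that the rule had not used. edgeR's quasi-likelihood test of shSov ChIP against shSov input called 423 of the 515 island windows (82.1%) higher at an adjusted p under 0.05, where 3.36% of the tested windows of the same intervals and 12.3% of all tested windows were called. At least 1 window was called in 284 of the 329 islands (86.3%). The median log2 fold change of the island windows was 0.95, against -0.41 for the tested windows of the intervals. Both shSov lysates entered this test, and with 1 of them left out 222 windows were called without lysate 1 and 141 without lysate 2. The long blocks gave a like share, 89 of 114 windows (78.1%).

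The stricter criterion that defined the islands in shW was met in shSov by fewer of them. The mean of the enriched windows was at least 1 in both shSov lysates in 95 islands (28.9%) and below 1 in both in 165, of which 50 (15.2%) were below 0.5 in both. In the other 69 the shSov lysates fell on different sides of 1. By window, 163 of 515 (31.7%) reached 1 in both shSov lysates, where 0.355% of the tested windows of the intervals did. With shSov lysate 1 left out 47.4% of the islands reached 1, and with shW lysate 2 left out of the choice 10.3% of the then 681 islands did. Near background, 11 islands were at or below 0 in both shSov lysates, a state shared by 81.1% of the tested windows, and 2 were at or below the median window in both. A total of 287 islands (87.2%) lay above the 95th percentile of the tested windows in both shSov lysates.

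The islands differed from each other in shSov by more than the shSov lysates differed. The SD across islands was 0.44 in shSov lysate 1 and 0.51 in shSov lysate 2, and the median absolute difference between the lysates at an island was 0.18. Across the 329 islands the shSov lysates correlated with Pearson's r = 0.89 and Spearman's rho = 0.87, where islands of one library share its depth and input and are not independent. Islands of 1, 2, 3 and 4 windows averaged medians of 0.85, 0.95, 0.98 and 0.79 in shSov, against 1.31, 1.45, 1.56 and 1.57 in shW. The shares at 1 or above in both shSov lysates were 25.4%, 32.6%, 42.3% and 31.3% by size, and the last rests on 5 of 16 islands. The 3 arms were alike, with 32 of 111 islands at 1 or above in both shSov lysates on 2L, 29 of 107 on 3L and 34 of 111 on 3R. Pooled over the arms, 30.7% of distal, 28.4% of middle and 27.4% of proximal islands were in this state. Single stretches varied without a common order, with 11 of 53, 14 of 29 and 7 of 29 from distal to proximal on 2L, 9 of 32, 9 of 44 and 11 of 31 on 3L, and 15 of 29, 8 of 36 and 11 of 46 on 3R. The 95 islands at 1 or above in both shSov lysates had a median shW enrichment of 1.62 and a median distance of 38.0 kb to the nearest run, and the 50 islands below 0.5 had 1.35 and 60.5 kb. Input was alike in both sets, with medians of 8.92 and 9.08 RPKM, and these are descriptions of sets split by their shSov values.

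**Figure D2:**
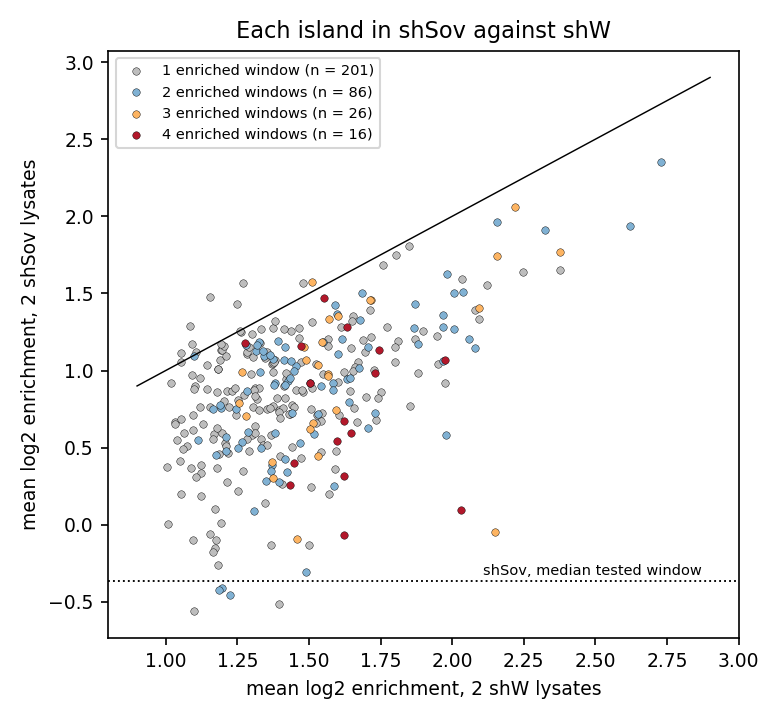
Mean log2 enrichment of each island in the 2 shSov lysates (vertical axis) against the 2 shW lysates (horizontal axis), coloured by the number of enriched windows, with the line of equal values. Most of the 329 islands lie below the line and above the dotted median tested window of shSov, and 9 lie above the line.

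To keep the choosing lysate out of the comparison, runs were chosen in 1 shW lysate and the genotypes were compared with the other shW lysate. The runs were still chosen for high values in shW. Regions below the threshold in the choosing shW lysate could not enter, whatever their shSov values. The reverse comparison, with runs chosen in 1 shSov lysate, was not made. Choosing in shW lysate 1 gave 684 short runs, of which 257 (37.6%) reached 1 in shW lysate 2, where 1.29% of the tested windows did. Choosing in shW lysate 2 gave 417 short runs, of which 297 (71.2%) reached 1 in shW lysate 1, against 2.05% of the tested windows. The ChIP of lysate 1 was shallower, at 18.0 reads in the median window of the intervals against 34.0 in lysate 2, and many of the runs chosen in it alone were weaker in the other lysate. For runs of 1, 2, 3 and 4 windows the shares were 29.2%, 44.3%, 69.4% and 63.6% when lysate 1 chose, and 66.0%, 78.8%, 75% and 80% when lysate 2 chose. Single windows had the lowest share in both, with no steady order among the longer runs.

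Median enrichment was lower in shSov also in these runs, measured against the shW lysate that did not choose them. In runs chosen in shW lysate 1, medians were 0.43 and 0.56 in the shSov lysates, against 0.80 in the unused shW lysate 2. The median difference within a run was -0.27, and both shSov values lay below shW lysate 2 in 465 of 684 runs (68.0%), where 23.4% of the tested windows showed this order. In runs chosen in shW lysate 2, medians were 0.73 and 0.87 in the shSov lysates, against 1.25 in the unused shW lysate 1. The median difference was -0.49, and both shSov values lay below shW lysate 1 in 329 of 417 runs (78.9%), where 19.4% of the tested windows did. Over all tested windows of the intervals the median difference was 0.13 against shW lysate 2 and 0.30 against shW lysate 1, on the opposite side of 0.

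edgeR's quasi-likelihood test of the genotype difference, on the 6 libraries left without the lysate that chose the runs, called windows of these short runs lower more often than windows in general. Of the 1055 windows chosen in shW lysate 1, 122 (11.6%) were lower in shSov at an adjusted p under 0.05, in 84 of the 684 runs, where 0.855% of all tested windows were lower. In these fits the shW ChIP and the shW input are 1 library each, assumed to vary like the shSov libraries. The shW replicates differed more, with a chi-square per degree of freedom of 3.00 for ChIP and 2.15 for input. The shSov replicates had 1.41 and 1.48, where 1 is counting noise alone. The spread used may therefore be too small and the calls too many. The test called 0 of the 1055 higher, where 0.277% of all tested windows were, and 9 were higher at an unadjusted p under 0.05; TMM factors and DESeq2 size factors in edgeR also gave 0. Of the 682 windows chosen in shW lysate 2, 259 (38.0%) were lower, in 183 of the 417 runs, where 5.05% of all tested windows were lower. In that test 2 of the 682 were higher, where 4.70% of all tested windows were. The 2 tests differ in the shW lysate they use, and with lysate 1 they called 5915 windows lower in the whole table against 1001 with lysate 2. In the islands chosen in both shW lysates, 86 of 515 windows were lower and 0 higher in the fit of all 8 libraries, where 0.595% and 0.264% of all tested windows were called; at an unadjusted p under 0.05 there were 263 lower and 0 higher, where 1779 and 6774 of the 66265 tested windows of the intervals were, and DESeq2 and limma also called 0 higher. The 86 lower windows became 6 without shSov lysate 1, 3 without shSov lysate 2, 133 without shW lysate 1 and 247 without shW lysate 2. These last counts follow from the choice and are given as a description, as is the count of 277 islands (84.2%) in which the higher shSov value was under the lower shW value, an order found in 8.0% of the tested windows. The reverse held in 3 islands, an order found in 37.8% of the tested windows.

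The long blocks had lower median differences than the short runs when each was measured in the unused shW lysate. In blocks of 5 or more windows the median difference was -0.51 over 44 blocks chosen in shW lysate 1 and -0.67 over 26 blocks chosen in shW lysate 2. In shSov the short runs stood at -0.15 and -0.11 relative to the long blocks when lysate 1 chose, against -0.49 in shW lysate 2. When lysate 2 chose, they stood at 0.11 and 0.16 in shSov, against -0.22 in shW lysate 1. The gap between short and long runs therefore differed between the genotypes by 0.37 and 0.36. The two-sided exact permutation test over the 3 lysates gave p = 0.333 each way, the smallest value it can give. The design therefore cannot decide whether this gap differs beyond the spread. The long blocks also reached 1 in the unused shW lysate more often than the short runs. When lysate 1 chose, 33 of 44 blocks and 257 of 684 short runs did. When lysate 2 chose, 23 of 26 blocks and 297 of 417 short runs did. Whether these unequal shares contribute to the gap was not tested. Among the short runs the median differences showed no order by size, from -0.23 to -0.33 when lysate 1 chose and from -0.43 to -0.59 when lysate 2 chose.

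**Figure D3:**
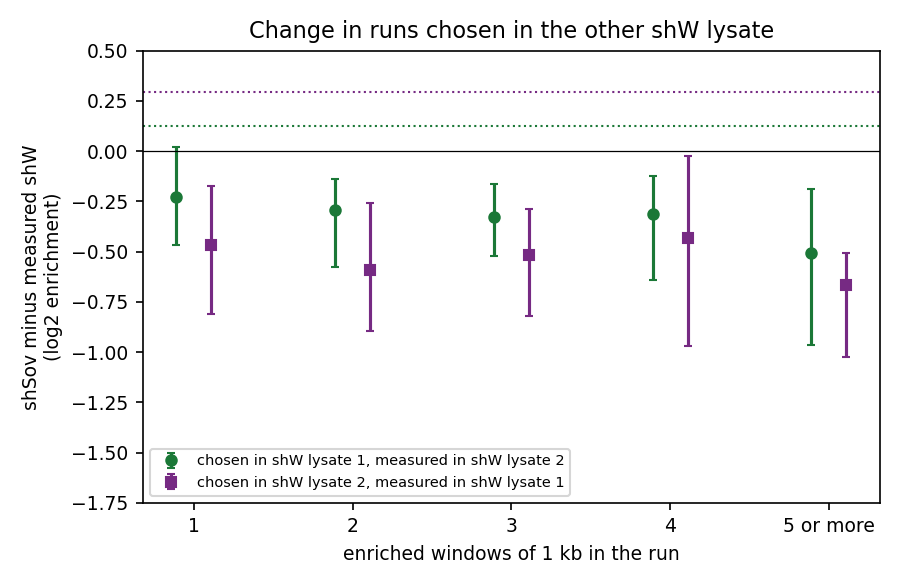
Median of shSov (mean of 2 lysates) minus the unused shW lysate (vertical axis, log2 enrichment) for runs of 1, 2, 3, 4 and 5 or more enriched windows; bars span the quartiles over runs and dotted lines mark the median of all tested windows in the same comparison. Medians of the short runs lie between -0.23 and -0.59, those of the long blocks at -0.51 and -0.67, and those of all tested windows at 0.13 and 0.30.

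Around the islands the mark declined within a few kilobases in both genotypes. At 1 kb from the edge the medians, averaged over the left and right sides, were 0.16 and 0.24 in shSov and 0.69 and 0.48 in shW. At 3 kb they were -0.20 and -0.18 in shSov and -0.15 and -0.20 in shW, with no separation of the genotypes. At 10 kb they were -0.28 and -0.33 in shSov and -0.53 and -0.44 in shW, close to the medians of all tested windows. The windows next to an island failed the threshold in an shW lysate by construction, which bounds the shW values there but not the shSov values.

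**Figure D4:**
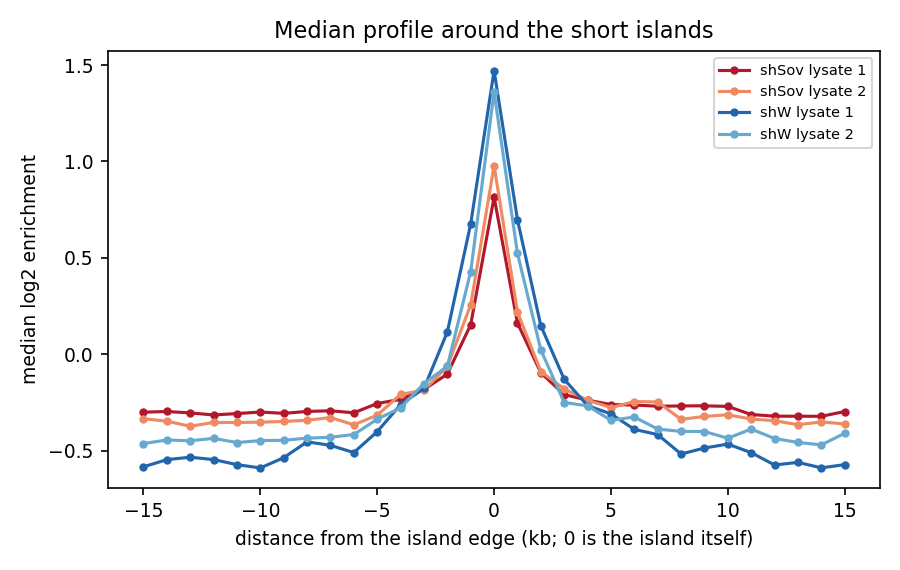
Median log2 enrichment (vertical axis) in each lysate at the 329 islands (distance 0) and in the tested windows up to 15 kb outside their edges (horizontal axis, kb). The shW lines lie above the shSov lines at the islands and at 1 kb, the lines meet near 3 kb, and the shW lines lie below beyond 5 kb.

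Individual islands ranged from shSov values overlapping those of shW to shSov values near background. The island with the highest mean enrichment over the 2 lysates, in shSov and in shW, was on 2L at 10406001 to 10408000, with 2.28 and 2.43 in shSov and 3.09 and 2.37 in shW. Its ChIP signal was 65.7 and 64.3 RPKM in shSov and 137.1 and 78.6 RPKM in shW, so the shW lysates differed more from each other than shW lysate 2 differed from shSov. The island on 3R at 2906001 to 2908000 showed the same split, with 1.95 and 1.93 in shSov and 3.12 and 2.13 in shW. So did the island on 2L at 10227001 to 10228000, with 1.70 and 1.60 in shSov and 2.91 and 1.84 in shW. In these 3 islands the size of the difference depends on shW lysate 1. The remaining islands among the 5 highest in shW were on 3R at 11032001 to 11035000, with 1.63 and 1.91 in shSov and 2.61 and 2.14 in shW, and on 3L at 6958001 to 6960000, with 1.73 and 2.09 in shSov and 2.27 and 2.38 in shW.

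Other islands, picked for the highest enrichment in shSov, had values near those of the control, which this choice favours. The island on 3R at 21224001 to 21227000 had 2.01 and 2.11 in shSov, against 2.12 and 2.32 in shW. The island on 3R at 2133001 to 2135000 had 1.96 in both shSov lysates, against 2.08 and 2.23 in shW. These shSov values lay below both shW values, and every window of both islands was called enriched in shSov. Among islands of 4 windows, the highest in shSov was on 3L at 4188001 to 4192000, with 1.34 and 1.61 in shSov and 1.45 and 1.66 in shW, where the genotypes overlap.

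In the islands with the lowest shSov values relative to shW, shSov enrichment was near 0 or below it. The median tested window stood at -0.33 and -0.39 in shSov, lower than both islands described first. On 3L at 14046001 to 14049000 enrichment was 0.02 and -0.12 in shSov, against 2.23 and 2.06 in shW, and ChIP signal was 12.8 and 12.9 RPKM in shSov, against 59.6 and 49.1 RPKM in shW. Its input was 12.8 and 13.6 RPKM in shSov and 11.6 and 10.96 RPKM in shW, so the ChIP reads carry the difference. Some 29 kb away, at 14013001 to 14017000, an island of 4 windows had 0.17 and 0.03 in shSov, against 1.95 and 2.11 in shW. No window of either island was called enriched over input in shSov, where the smallest edgeR adjusted p was 0.90 in the island at 14046001 and 0.054 in the island at 14013001.

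The window at 14043001 to 14044000, only 2 kb from the island at 14046001, behaved differently. It had 1.15 and 1.37 in shSov, against 1.87 and 0.76 in shW, and was left out of the islands because shW lysate 2 did not reach the threshold. This window was picked after its values were seen. From 14020001 to 14043000 the windows were below 0 in all 4 lysates. The window next to the first island, at 14017001, had 0.08 and 0.13 in shSov and 0.77 and 1.47 in shW, and the window at 14044001 had 0.25 and 0.64 in shSov and 0.89 and 0.72 in shW.

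**Figure D5:**
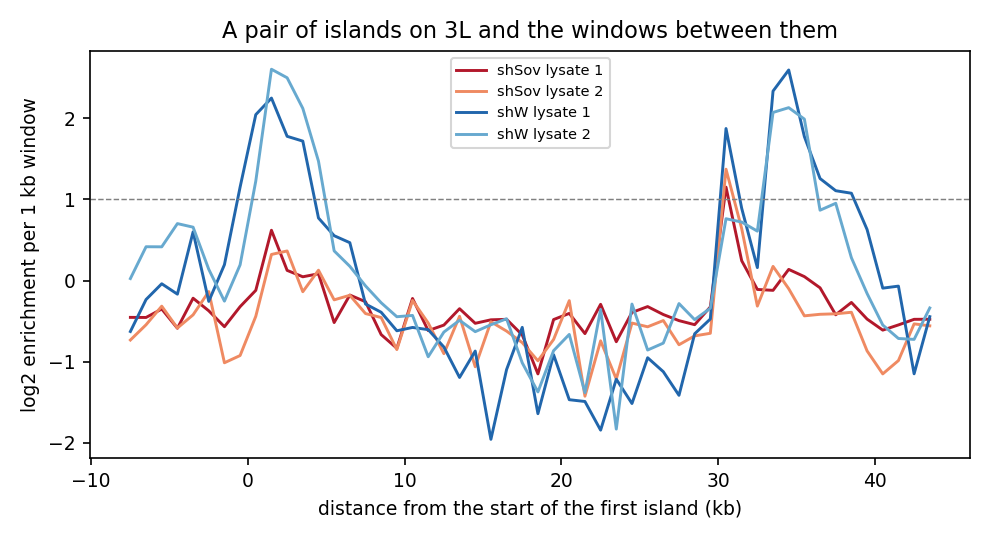
Log2 enrichment per 1 kb window (vertical axis) across the pair of 3L islands with low shSov values, against distance from the start of the first (horizontal axis, kb), in each lysate; the dashed line is the threshold of 1. The shW lines peak above 2 at both islands where the shSov lines stay below 0.7, while near 30 kb a single window exceeds 1 in both shSov lysates and in shW lysate 1.

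Similar values were found at 3 more islands with low shSov values. On 3L at 3598001 to 3599000, enrichment was -0.40 and -0.62 in shSov, against 1.34 and 1.45 in shW. On 3R at 18186001 to 18188000 it was -0.34 and -0.27 in shSov, against 1.37 and 1.61 in shW. On 3L at 16780001 to 16784000, an island of 4 windows, it was -0.10 and -0.03 in shSov, against 1.73 and 1.51 in shW. These 5 islands were picked for the lowest difference among islands in which the genotypes did not overlap, which favours low shSov values. edgeR called 0 of their windows enriched in shSov.

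The opposite order was rare. On 3L at 20414001 to 20415000 enrichment was 1.32 and 1.64 in shSov, against 1.01 and 1.30 in shW. On 3R at 20043001 to 20044000 it was 1.12 and 1.46 in shSov, against 1.06 and 1.11 in shW. On 2L at 16785001 to 16788000 it was 1.59 and 1.56 in shSov, against 1.48 and 1.55 in shW. The nearest lysates of the genotypes differed by no more than the spread within a genotype in each, and the last island belongs to the largest local group, 6 islands within 168 kb of 2L from 16659001 to 16827000, whose shSov means ran from 0.39 to 1.58.

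The islands with the median number of shW ChIP reads on their arm, summed over windows, were single windows. Their mean shW enrichment was 1.77 on 2L, 1.85 on 3L and 1.88 on 3R. All were above the 1.42 of the island medians in shW. On 2L at 15249001 to 15250000 enrichment was 1.22 and 1.35 in shSov and 1.47 and 2.07 in shW. On 3L at 7721001 to 7722000 it was 1.66 and 1.95 in shSov and 1.86 and 1.84 in shW, with the genotypes overlapping. On 3R at 9486001 to 9487000 it was 1.10 and 0.88 in shSov and 2.14 and 1.62 in shW. Near the threshold, the 3 islands just inside had 1.00 in their weaker shW lysate and shSov values from 0.23 to 1.31, and the 3 windows just outside had 1.00 to 2 decimals in theirs and shSov values from -0.32 to 1.56. A total of 151 windows lay within 0.1 below the threshold in their weaker shW lysate and 68 islands within 0.1 above it, so the number of islands depends on where the line is drawn.

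The same rule applied to the shSov lysates gave 148 islands and 2 long blocks. Of the 329 islands chosen in shW, 121 (36.8%) contained a window enriched in both shSov lysates, where 0.355% of the tested windows of the intervals were. Of the 148 islands chosen in shSov, 129 (87.2%) contained a window enriched in both shW lysates, and 121 a window of an shW island. Windows enriched in both shW lysates were 515 in islands and 114 in long blocks, of 66265 tested. The 2 shares also depend on the unequal sizes of the sets. The 148 islands chosen in shSov had medians of 1.19 and 1.36 in shSov and 1.62 and 1.59 in shW. Their choice favours high shSov values. The 19 without a window enriched in both shW lysates had medians of 1.12 and 1.34 in shSov and 0.84 and 1.14 in shW. The choice of these 19 favours low shW values. Their shW values varied, and the lowest were in the window on 3L at 15063001 to 15064000, with 1.55 and 1.77 in shSov and -0.84 and -0.37 in shW, where input was also higher in shSov, at 19.6 RPKM in shSov lysate 1 and 7.16 RPKM in shW lysate 1.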

How the data were processed

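H3K9me3 ChIP and input libraries of shSov and shW ovaries (2 lysates per genotype) were analysed from tables of 168744 windows. The authors deposited, per window, the raw read count and the RPKM, as the values show, in tables without a header line; the deposited RPKM equalled the deposited count scaled by window length and library total. Bowtie, bedtools and build dm3 are named in the submitters' processing notes, without versions; handling of repeated and duplicate reads is not given in the sources used here. A ChIP and an input with the same genotype and number were treated as 1 lysate, and titles with the word repeat were numbered 2.

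Windows with a mean input of at least 2 RPKM over the 4 inputs were tested. A pseudocount of 1 was added to RPKM. Counts were fitted with edgeR 4.0.16 (quasi-likelihood, 4 groups, library totals as offsets, Benjamini-Hochberg over all tested windows, threshold 0.05); DESeq2 1.42.0, limma 3.58.1, other scalings and left-out lysates were alternatives. Fits were tested on simulated data. Groups held 2 libraries each, or 1 for shW ChIP and shW input where the lysate that chose the runs was left out. Replicate libraries differed by a chi-square per degree of freedom of 1.41 to 3.00, where 1 is counting noise alone. The shW replicates differed more than the shSov replicates, in ChIP and in input. Islands named were picked by rank of shSov, shW or difference, by size, by median reads or by nearness to the threshold, with at least 10 ChIP reads per window. The rank of difference was taken only among islands whose shSov and shW values did not overlap. Members and lists were chosen with earlier results of these data known.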

Additional observations from a re-analysis of the deposited data

How the results depend on the processing

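Of 109 alternatives over 13 results, 35 moved a value beyond its spread or a count by over 1.5 times. The difference between island medians stayed below 0 and the gap between short and long runs above 0 in each alternative run for them. Each alternative again chose the islands for high shW values, which favours a difference of island medians below 0. Which input calls were more frequent, higher or lower, changed. The 329 islands became 112 at a threshold of 1.5 and 895 with libraries centred on the median interval window, and 329 to 681 with 1 lysate left out. The difference between the island medians of shSov and shW, -0.52, ran from -0.77 to -0.44 with 1 lysate left out. The share at 1 or above in both shSov lysates, 28.9%, was 58.9% at a threshold of 1.5 and 10.3% to 47.4% with 1 lysate left out. The gap between short and long runs, 0.36, was 0.29 and 0.40 with pseudocounts of 0.5 and 2, 0.52 at a threshold of 1.5, 0.395 with the mean input of the genotype and 0.21 after centring; it was 0.34 to 0.39 with 1 shSov lysate left out, and leaving out an shW lysate was not run because the choice of runs would then enter it. The 423 windows enriched in shSov became 141 to 454 with 1 lysate left out. The 86 lower windows became 56 with DESeq2, 32 with limma, 151 from ChIP reads alone and 3 to 247 with 1 lysate left out. For runs chosen in shW lysate 2, DESeq2 size factors gave 391 lower windows instead of 259, and TMM factors and DESeq2 size factors gave 0 higher instead of 2. Input calls of 2 higher became 1 with TMM factors, 1 with DESeq2 size factors, 6 with all windows with a read and 0 to 20 with 1 lysate left out; the 3 lower became 0 to 11. Leaving out a lysate also leaves fewer libraries, and in its genotype 1 library per group, assumed to vary like the others. The cause of the other moves was not tested.

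With the replicate number as a block, 421 windows were enriched in shSov, 64 were lower and 0 higher over the islands, and in input 3 were lower and 1 higher. Deviations of same-numbered lysates correlated with r = -0.026 over tested windows, so no shared deviation was seen, and whether equal numbers share a day or handling is not given in the labels. Thinning the ChIP and input reads to equal depth gave 338 islands, of which 26.9% were at 1 or above in both shSov lysates; the alternatives for this share were added after seeing the data.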
